A study of Rattus norvegicus with 8 samples.

Results

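Protein folding and stress in the endoplasmic reticulum (ER) were followed through 10 genes in spinal motoneurons of the rat between postnatal day 1 (P1) and postnatal day 21 (P21). The set held the chaperone genes Hspa5 and Hsp90b1, the lectin chaperone genes Calr and Canx, the disulfide isomerase genes Pdia3 and Pdia4, the J protein gene Dnajb9 and the transcription factor genes Ddit3, Atf4 and Xbp1. Every probe set annotated to exactly 1 of these symbols was taken, which gave 13 probe sets out of 31042 on the array, for 10 of 14217 genes named by such probe sets: 3 for Canx, 2 for Pdia3 and 1 for each of the other 8 genes. A probe set is a group of short probes read together as 1 intensity. The members were listed by name and function, and no value enters the rule. They were, however, chosen with earlier results of these data known, as were the lists of other genes below.

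The arrays came from Wistar albino rats, and no genotype, allele or treatment is named for either group. The P1 group was taken at age 1 day, while motor axons are being myelinated, and the P21 group at 21 days, when that process is over. Litters were split between the ages, giving 4 biological replicates at each, and each replicate was 1 array hybridised with RNA pooled from 4 rats. Between 1500 and 2000 cresyl violet-stained motoneurons of the lumbar cord were laser captured per array from sections of 12 µm, and about 50 ng of RNA went through 2 rounds of amplification primed at the poly(A) tail.

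Proteins that are secreted or sit in membranes fold in the ER with the help of resident chaperones, and motoneurons, which keep up a very large membrane, stain strongly with cresyl violet because of their rough ER. When unfolded proteins build up, the sensors IRE1, PERK and ATF6 start the unfolded protein response. IRE1 splices the messenger of Xbp1, PERK slows translation but favours that of Atf4, which in turn drives Ddit3 (the protein CHOP), and cleaved ATF6 induces chaperone genes. Much of this control lies in splicing, translation and cleavage, which a probe-set intensity does not read.

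Of the 9 members with a promoter in the RefSeq table (250 bases before to 50 after the start, GRCr8), 5 held the ER stress response element, the site through which ATF6 and XBP1 act with the factor NF-Y. The element was searched on both strands as CCAAT, then any 9 bases, then CCACG. It was found in 22 of 33469 promoters of that length (0.0657%). The element is a textbook motif of ER stress genes, so finding it in members of that kind is no independent result. The windows below are shown because, of the 4 elements searched, this was the one found in any member. Each is given 5′ to 3′ on the strand of the gene, from GRCr8, with the element in capitals; in Calr and in the second Hsp90b1 window it lies on the opposite strand.
Hspa5, chr3:38452933-38453015, plus strand: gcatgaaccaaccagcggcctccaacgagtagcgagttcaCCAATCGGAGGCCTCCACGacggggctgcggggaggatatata
Hsp90b1, chr7:23012411-23012509, minus strand: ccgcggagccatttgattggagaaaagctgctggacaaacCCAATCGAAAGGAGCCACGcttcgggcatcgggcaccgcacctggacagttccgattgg
Hsp90b1, chr7:23012307-23012405, minus strand: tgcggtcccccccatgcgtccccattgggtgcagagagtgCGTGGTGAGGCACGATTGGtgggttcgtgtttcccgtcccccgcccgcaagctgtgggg
Canx, chr10:35158029-35158107, minus strand: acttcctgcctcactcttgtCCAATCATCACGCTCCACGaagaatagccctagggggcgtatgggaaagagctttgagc
Xbp1, chr14:84604518-84604616, plus strand: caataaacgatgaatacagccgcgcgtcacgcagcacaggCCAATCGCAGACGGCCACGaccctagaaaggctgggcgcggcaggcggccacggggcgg
Calr, chr19:40213117-40213193, plus strand: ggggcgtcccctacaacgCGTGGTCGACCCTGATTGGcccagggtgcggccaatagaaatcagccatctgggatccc

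The element of Hspa5 lay 43 to 25 bases before the annotated start and that of Xbp1 65 to 47 bases before it. The elements of Hsp90b1 lay 176 to 158 and 72 to 54 bases before the start, and those of Canx and Calr began 230 and 232 bases before it. The start used for Canx lies inside its annotated gene, whose outer end is nearer to the element. The promoters of Pdia4, Dnajb9, Ddit3 and Atf4 held no match. None of the 9 promoters held the other elements searched on both strands: ATTGG and CCACG with any 1 base between (a second form of the ER stress element, in 0.0508% of all promoters), TGACGTGG (an XBP1 element, in 0.595%) or TGATGCAA (an ATF4 element, in 0.795%). A match is a run of letters and was not tested for binding.

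The comparison of P21 with P1 asked which of these transcripts differ between the motoneuron pools of the 2 ages. A change below is log2 of P21 over P1 after adding 16 to each intensity, written ± its standard error. Adjusted p-values are from limma with Benjamini-Hochberg adjustment over 19155 probe sets, an adjusted p under 0.05 is a call, and n = 4 arrays per age throughout. All 13 probe sets passed the filter on low values, since each lay above the 40th percentile of its array on all 8 arrays. In RNA from pools of captured cells, fewer cells of a type and less RNA per cell cannot be told apart.

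Of the 13 probe sets, 5 were higher at P21 and 0 were lower. They were those of Dnajb9 and Atf4, 2 of the 3 for Canx and 1 of the 2 for Pdia3. That is 38.5% called, against 38.3% of all probe sets (20.8% higher and 17.4% lower), so the share of members called was close to the background. The median change of the members was 0.03, beside 0.07 for all probe sets. With 1 probe set per gene, the brightest, 2 of the 10 genes were higher (Dnajb9 and Atf4) and 0 were lower, against 39.4% of all 10961 genes called. Without adjustment for the number of probe sets, limma's test would also have placed Hsp90b1 and the brighter Pdia3 probe set lower and Ddit3 higher at the same threshold. The values of the ages did not overlap in 6 of the 13 probe sets, with P21 above P1 in 5 and below it in 1. Over all probe sets 38.0% did not overlap, 20.4% with P21 above and 17.7% with P21 below.

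**Figure D1:**
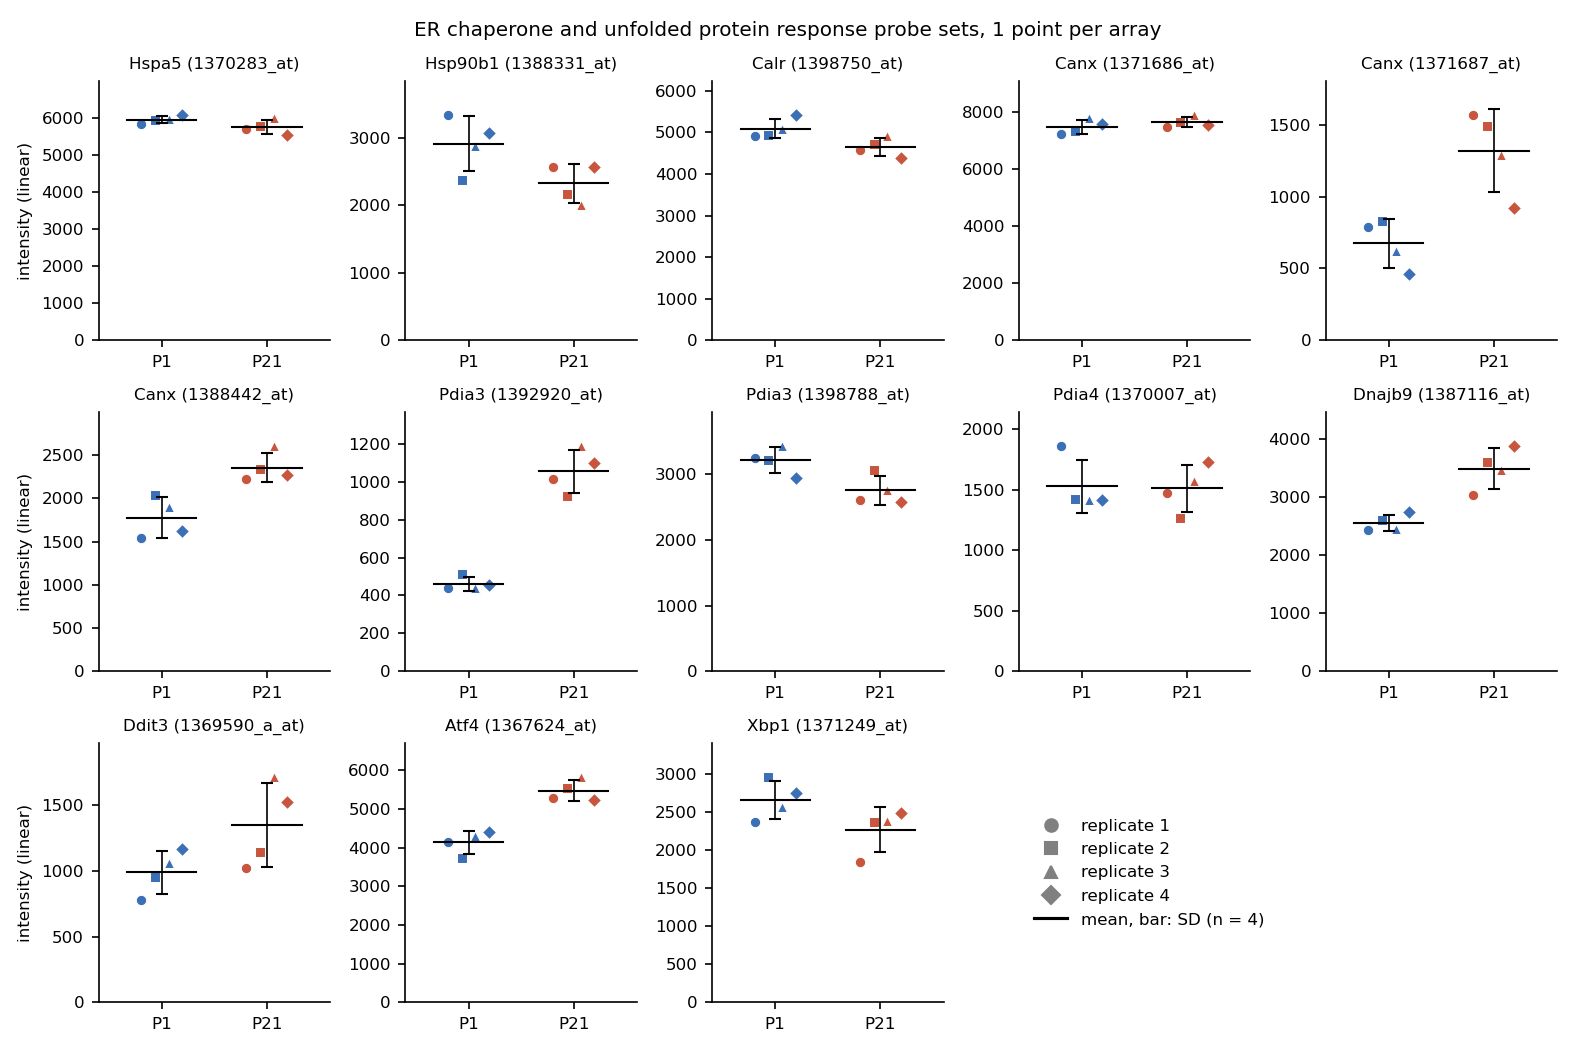
Linear intensity of the 13 probe sets on the 4 P1 arrays (blue) and the 4 P21 arrays (red), 1 point per array with its shape giving the replicate number, a line for the mean and a bar for the SD. The ages are fully apart in Dnajb9, Atf4, Calr, 2 of the Canx probe sets and the dimmer Pdia3 probe set, and they overlap in the other 7.

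The sign of a small change depended on the scaling of the arrays. The deposited medians were 323 to 408 at P1 and 399.6 to 416 at P21. Centring each array on its median moved the median change of all probe sets from 0.07 to -0.07 and turned the share of all calls that were higher from 54.4% to 38.3%. Under that centring 2 of the 13 member probe sets were higher (the dimmest one of Canx and of Pdia3) and 2 were lower (Hsp90b1 and the brighter one of Pdia3). Quantile normalization kept the split at 5 higher and 0 lower, with a median over all probe sets of 0.01.

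**Figure D2:**
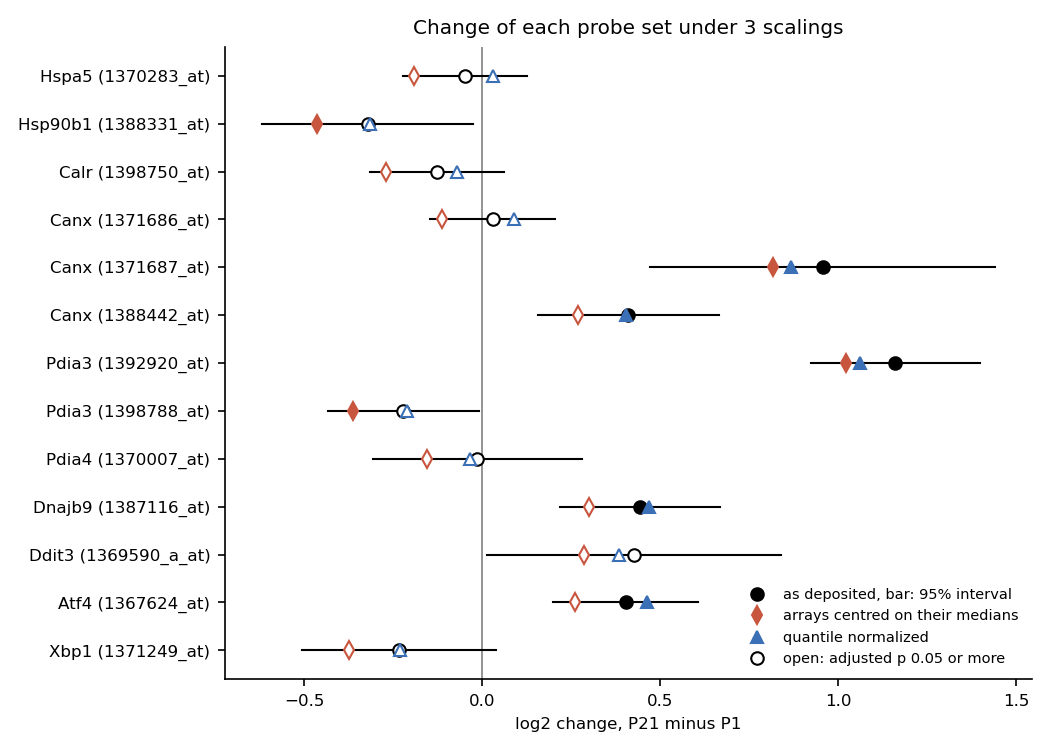
Log2 change from P1 to P21 of each member probe set as deposited (circles, with 95% intervals from limma), with arrays centred on their medians (diamonds) and after quantile normalization (triangles); filled symbols have an adjusted p under 0.05. The dimmest Canx and the dimmer Pdia3 probe sets are called under all 3 scalings, whereas Dnajb9, Atf4 and the middle Canx probe set are called under 2 of them.

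Hspa5 encodes BiP, the Hsp70 of the ER lumen, which binds nascent chains and holds the stress sensors inactive. Its intensities were 5836, 5934, 5979 and 6070 on the P1 arrays and 5707, 5784, 5994 and 5543 on the P21 arrays. The ages overlapped, and 3 of the 4 same-numbered pairs were lower at P21. The means were 5955 ± 97.3 (SD) and 5757 ± 187, a change of -0.05 ± 0.08 (95% interval -0.22 to 0.13, adjusted p = 0.653). The change was 0.03 after quantile normalization, so its sign was not settled. Hspa5 had the smallest spread at P1 of all members, an SD of 0.02 on the log2 scale.

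Hsp90b1 encodes GRP94, the Hsp90 of the lumen, which folds a narrower set of clients such as integrins and Toll-like receptors. It read 3332, 2372, 2884 and 3068 at P1 and 2562, 2167, 1997 and 2568 at P21. Every P21 array was below the P1 array of the same replicate number, although the ranges of the ages overlapped through P1 replicate 2. The change was -0.32 ± 0.13 (95% interval -0.62 to -0.02, adjusted p = 0.0836). It became a call with the replicate number as a block (adjusted p = 0.0298), with median centring (adjusted p = 0.0376) and without P1 replicate 2 (change -0.42, adjusted p = 0.0271).

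Calr encodes calreticulin, the soluble lectin of the lumen that retains unfolded glycoproteins and binds calcium. Its probe set read 4922, 4931, 5072 and 5413 at P1 and 4573, 4728, 4911 and 4392 at P21. All 4 P21 values lay below all 4 P1 values, but the gap was small: the change was -0.13 ± 0.08 (95% interval -0.32 to 0.06) and did not pass (adjusted p = 0.262).

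Canx encodes calnexin, the membrane-bound counterpart of calreticulin, and its 3 probe sets did not move alike. The brightest read 7241, 7356, 7788 and 7589 at P1 and 7479, 7669, 7891 and 7542 at P21, with a change of 0.03 ± 0.08 (95% interval -0.15 to 0.21, adjusted p = 0.795). Its ages overlapped and its change was -0.11 with median centring. The middle one read 1542, 2040, 1905 and 1618 at P1 and 2221, 2336, 2603 and 2266 at P21, with no overlap, and was higher by 0.41 ± 0.11 (adjusted p = 0.0179). That call was lost with median centring (adjusted p = 0.165) and without P1 replicate 4 (adjusted p = 0.0556).

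The dimmest Canx probe set read 788, 830.0, 622 and 459 at P1 and 1565, 1491, 1292 and 923 at P21. The ages were apart, and within each the arrays numbered 1 and 2 were highest and the array numbered 4 lowest. The change was 0.96 ± 0.22 (adjusted p = 0.00659), or 1.94-fold, and the call held in all 15 alternative fits. The within-age SD of this probe set was 0.38 at P1 and 0.34 at P21 on the log2 scale, against 0.05 and 0.03 for the brightest. The position of each probe set along the Canx transcripts was not analysed here.

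Pdia3 encodes ERp57, the isomerase that works on glycoproteins held by the 2 lectins, and its probe sets pointed in opposite directions. The brighter one read 3248, 3212, 3419 and 2942 at P1 and 2605, 3061, 2754 and 2576 at P21, lower on every same-numbered pair. Its change was -0.22 ± 0.09 (adjusted p = 0.0935), and it was called with median centring (-0.36, adjusted p = 0.0471). The dimmer one read 439.6, 515, 439 and 455 at P1 and 1013, 922, 1186 and 1100 at P21. It was higher on all 4 P21 arrays than on any P1 array, by 1.16 ± 0.11 or 2.24-fold (adjusted p = 3.09e-05), the largest change among the 13 and a call in all 15 alternative fits. The gap between the changes of the 2 probe sets was 1.38. The counts by gene rest on the brighter set; with the mean of a gene's probe sets Pdia3 (0.47 ± 0.08, adjusted p = 0.00109) and Canx (0.47 ± 0.10, adjusted p = 0.00591) were called higher and the count rose to 4 of 10 genes.

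Pdia4 encodes ERp72, an isomerase that also retains misfolded proteins. It read 1858, 1421, 1417 and 1412 at P1 and 1472, 1269, 1573 and 1732 at P21. The ages overlapped, and P1 replicate 1 was above all other arrays of either age while the other 3 P1 values lay close together. The change was -0.01 ± 0.13 (95% interval -0.31 to 0.28, adjusted p = 0.944) and 0.08 without that array.

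Dnajb9 encodes ERdj4, a J protein that brings BiP to misfolded proteins and to the sensor IRE1. It read 2444, 2603, 2459 and 2741 at P1 and 3039, 3608, 3466 and 3883 at P21. The ages did not overlap and all 4 same-numbered pairs were higher at P21. The change was 0.44 ± 0.10 (1.36-fold, adjusted p = 0.00659). It held without any 1 array (adjusted p 0.00423 to 0.0213) and was lost with median centring (0.30, adjusted p = 0.0865).

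Atf4, the factor whose translation PERK favours, read 4138, 3733, 4301 and 4411 at P1 and 5298, 5556, 5824 and 5241 at P21. The ages were fully apart, with means of 4146 ± 297 and 5479.8 ± 267. The change was 0.40 ± 0.09 (1.32-fold, adjusted p = 0.00640), with adjusted p from 0.0120 to 0.0189 when any 1 array was left out. With median centring the change was 0.26 (adjusted p = 0.170).

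Ddit3, the CHOP gene downstream of Atf4, had a change of similar size and a wider spread. It read 778, 955, 1061 and 1166 at P1 and 1022, 1146, 1713 and 1524 at P21. The ages overlapped, P21 replicates 1 and 2 lying within the P1 range, while each P21 array was above the P1 array of its own number. The change was 0.43 ± 0.18 (95% interval 0.01 to 0.84, adjusted p = 0.0961). It was called with the replicate number as a block (adjusted p = 0.0118) and without P21 replicate 1 (0.55, adjusted p = 0.0436).

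Xbp1, the factor spliced by IRE1, read 2371, 2960, 2568 and 2757 at P1 and 1841, 2371, 2389 and 2486 at P21. Its ages overlapped, with each P21 array below the P1 array of its number. The change was -0.23 ± 0.12 (95% interval -0.51 to 0.04, adjusted p = 0.162), -0.38 with median centring (adjusted p = 0.0504). Its single probe set does not separate the spliced from the unspliced messenger.

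Within each array, 5 pairs of members with related roles were then compared, since a shift of the whole array on the log2 scale cancels in the difference between 2 of its probe sets. Each was tested by an exact two-sided permutation test over the 70 divisions of the 8 arrays, whose smallest p is 0.0286, with adjustment over the 5 pairs. The tests show unequal change only, and levels of different probe sets were not compared. Xbp1 minus Dnajb9 was 0.05 ± 0.10 (SD) at P1 and -0.62 ± 0.08 at P21, a difference of -0.68 with no overlap between the ages (exact p = 0.0286, adjusted p = 0.0714). It lay between -0.71 and -0.63 without any 1 array.

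Calr minus Canx (brightest probe set) went from -0.56 ± 0.05 to -0.72 ± 0.04, a difference of -0.16 that also left no overlap (exact p = 0.0286, adjusted p = 0.0714). Hspa5 minus Hsp90b1 differed by 0.27 (exact p = 0.143, adjusted p = 0.238). It was higher at P21 in all 4 same-numbered pairs, an order that this test, which does not use the pairing, leaves aside. Pdia3 (brighter) minus Pdia4 differed by -0.21 (exact p = 0.343, adjusted p = 0.429). Atf4 minus Ddit3 differed by -0.02 (exact p = 0.971, adjusted p = 0.971), with a spread of 0.22 and 0.32 within the ages. None of the 5 passed after adjustment, and with 2 pairs at the smallest p the adjusted value could not go below 0.0714.

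**Figure D3:**
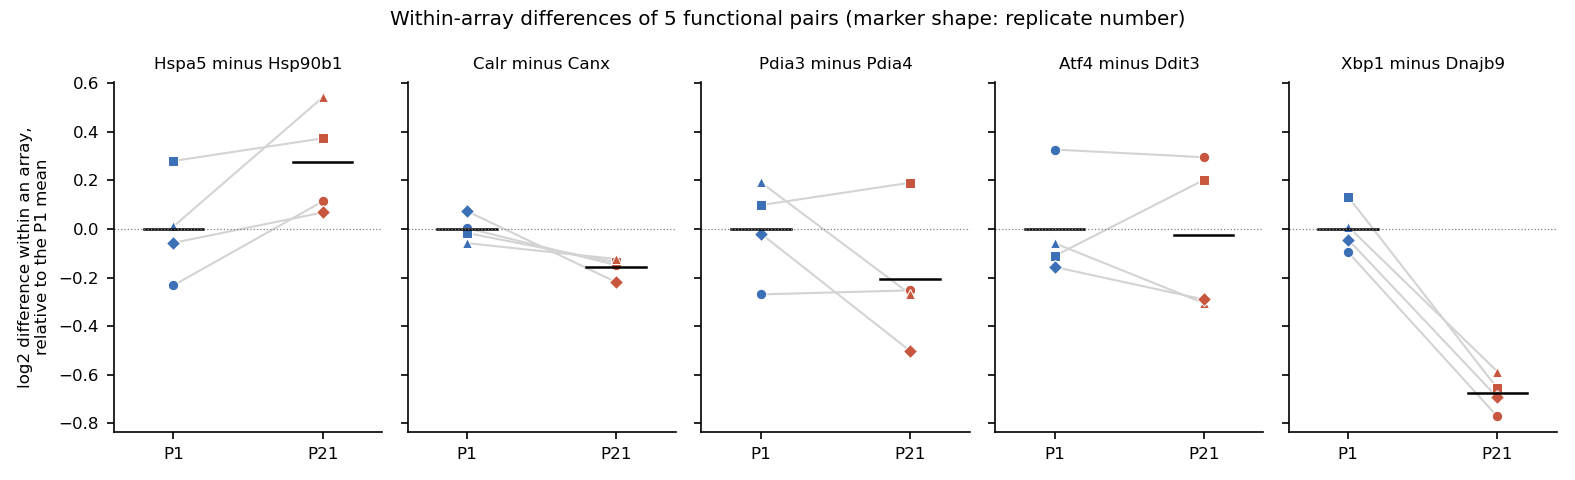
Log2 difference between 2 members within each array, relative to the P1 mean of that pair, for 5 pairs; each point is an array, its shape the replicate number, black lines are means and grey lines join arrays of 1 number. Xbp1 minus Dnajb9 is -0.68 at P21 and Calr minus Canx -0.16, both without overlap, while the other 3 pairs overlap.

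Within an age, P21 replicate 3 gave the highest of the 4 P21 values in 7 of the 13 probe sets, and P1 replicate 1 the lowest of the 4 P1 values in 7. The median deviation of an array from its age mean over the members stayed between -0.05 and 0.07 on the log2 scale. Between all arrays the correlation over probe sets was 0.958 to 0.986 within an age and 0.821 to 0.868 between ages.

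Around the members, 134 other genes of the ER were tested in 9 lists by function. Of these 36 were higher at P21 (26.9%, against 22.0% of all genes) and 13 lower (9.70%, against 17.4%), and their median change was 0.06, beside 0.05 for all genes. With median centring the split was 24 higher and 16 lower. The lower calls numbered 7 without P1 replicate 3, P1 replicate 4, P21 replicate 1 or P21 replicate 4.

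**Figure D4:**
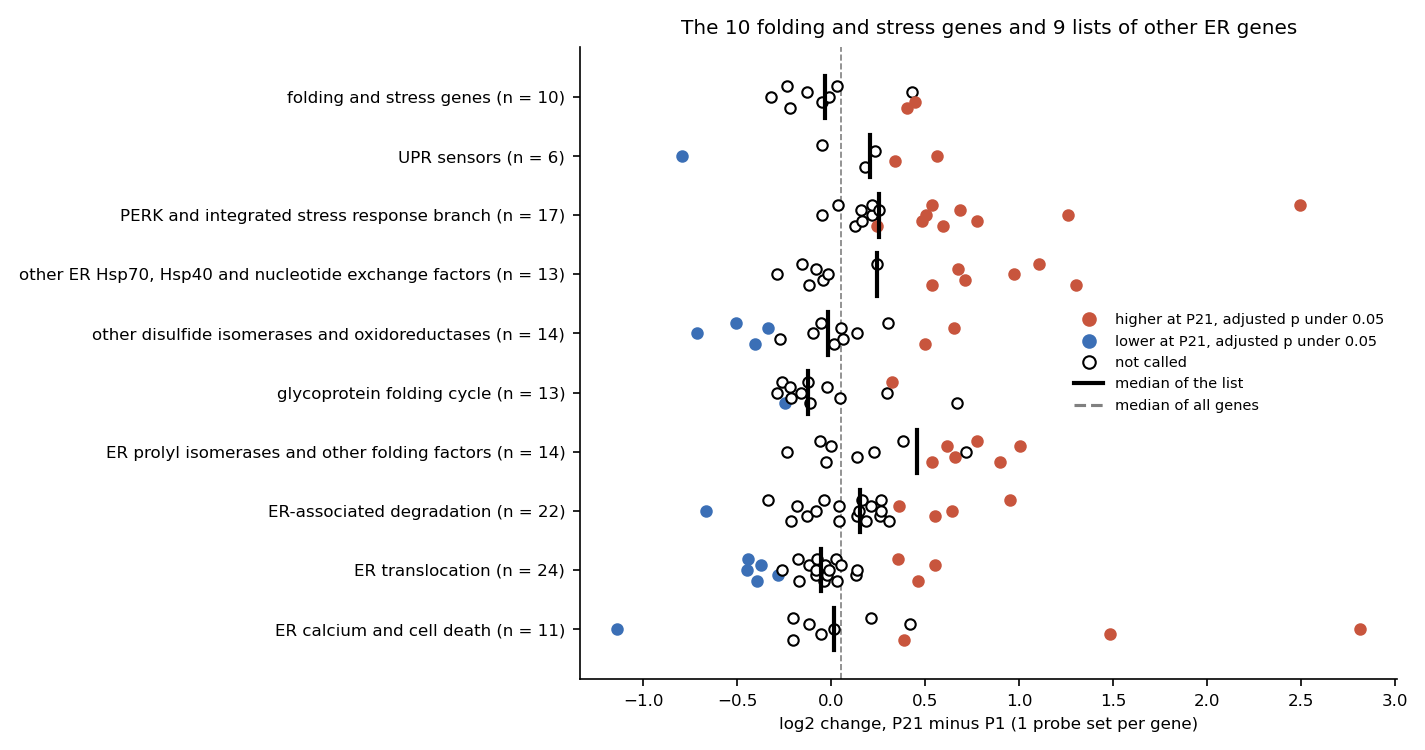
Log2 change from P1 to P21 of the 10 folding and stress genes and of 134 other genes in 9 lists, 1 probe set per gene; red and blue points are called higher and lower, open points are not called, the thick line is the median of a list and the dashed line that of all genes. The PERK and integrated stress response list has 9 higher (Nupr1 among them, kept through its P21 values alone) and 0 lower, while the translocation list has 3 higher and 5 lower. Of all genes 22.0% are called higher and 17.4% lower.

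Of the 10 listed sensors and partners of the unfolded protein response 6 were tested, with 2 higher and 1 lower, too few to set against the 22.0% and 17.4% of all genes. Eif2ak3, the gene of PERK, read 791 to 1030.0 at P1 and 1122 to 1374 at P21 and rose by 0.56 ± 0.11 (adjusted p = 0.00372). Atf6 rose by 0.34 ± 0.12 (adjusted p = 0.0438), a call lost with median centring (adjusted p = 0.279) and without any 1 of 6 of the arrays. Mbtps2, the protease that makes the last cut releasing ATF6, fell from 1687 ± 53.5 to 967 ± 98.2 (change -0.80 ± 0.10, adjusted p = 1.93e-04). Ern1, the gene of IRE1, is not analysed here.

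Among 17 genes of the PERK and integrated stress response branch, 9 were higher (52.9%) and 0 lower, against 22.0% and 17.4% of all genes. The median change of the 17 was 0.26, beside 0.05 for all genes. The 9 included factors that pair with ATF4 and genes it is known to drive. Nupr1, a small stress-induced chromatin protein, read 106 to 219 at P1, under the filter level on all 4 arrays, and 567 to 1080 at P21, at least 3.42-fold higher. It passed the filter through its P21 values alone and so had to differ, and it is 1 of the 9. Atf5, a factor of the same family as Atf4, rose from 445 ± 72.6 to 1078 ± 59.3 (1.26 ± 0.12, adjusted p = 5.15e-05). The ages of Atf5 did not overlap.

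Asparagine synthetase, Asns, a target of ATF4, rose by 0.59 ± 0.12 (adjusted p = 0.00451), from 2037 to 2604 at P1 to 3079 to 3942 at P21. Cebpb (0.69), Cebpg (0.54), Nfe2l2 (0.77), Atf3 (0.50), Sesn2 (0.48) and Eif2ak1 (0.24) were also higher, the last of them a call lost without any 1 of 7 of the arrays. Chac1 (0.26, adjusted p = 0.0641), Ddit4 (0.13) and Ppp1r15a (0.16), other genes of this response, did not pass. All P21 values of Chac1 lay above all its P1 values, and it was called with the replicate block (adjusted p = 0.0317). Trib3 read 0.04 on the probe set used and 0.62 on its other one, which was called (adjusted p = 0.00230). With median centring 5 of the 17 were higher, and leaving out any 1 array gave 8 or 9.

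In the list of other Hsp70, Hsp40 and exchange factors of the ER, 6 of 13 genes were higher (46.2%) and 0 lower. Over all genes the shares were 22.0% and 17.4%. Sil1, the exchange factor that releases ADP from BiP, rose from 181 ± 32.7 to 469 ± 60.8 (change 1.30 ± 0.14, adjusted p = 8.93e-05), with 3 of the 4 P1 values under the filter level. The J protein genes Dnajc1 (1.11 ± 0.17), Dnajb14 (0.97), Dnajc3 (0.71) and Sec63 (0.68) rose, as did Sdf2l1 (0.53), although the other Dnajc1 probe set was not called (0.06). The Sdf2l1 call (adjusted p = 0.0367) was lost with median centring (adjusted p = 0.107) and without any 1 of 5 of the arrays. Hyou1 (-0.12), Manf (-0.05), Creld2 (-0.16), Dnajb11 (-0.29) and Dnajc10 (-0.08) did not pass. All P21 values of Dnajb11 lay below all its P1 values, and it was called lower with the replicate block (adjusted p = 0.0195) and with median centring (adjusted p = 0.0470). On the same arrays Hspa5 itself had a change of -0.05.

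The other disulfide isomerases and oxidoreductases went both ways, with 2 of 14 higher (14.3%) and 4 lower (28.6%), against 22.0% and 17.4% of all genes. Tmx1, a membrane-bound isomerase, fell from 6509 ± 193 to 3965 ± 316 (change -0.72 ± 0.09, adjusted p = 2.05e-04), and Erp29 by 0.51 ± 0.10 (adjusted p = 0.00414). P4hb, the classical isomerase PDI (-0.41, adjusted p = 0.0473), and Pdia6 (-0.34, adjusted p = 0.0242) were lower. Both calls ended when P1 replicate 3, P1 replicate 4, P21 replicate 1 or P21 replicate 4 was dropped, and that of P4hb also without P1 replicate 1 and with the replicate block (adjusted p = 0.0540). The oxidase gene Ero1b, whose protein reoxidises PDI, rose by 0.65 ± 0.11 (adjusted p = 0.00139) and Tmx3 by 0.50 ± 0.10. Tmx4, Ero1a and Erp44 did not pass on the probe set used, while another probe set of each was called higher (1.04, 0.72 and 0.64). With the replicate block the Ero1a probe set used was called as well (adjusted p = 0.0226).

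Of 13 genes of the glycoprotein folding cycle around Calr and Canx, 1 was higher (Lman2, 0.33 ± 0.11, adjusted p = 0.0449) and 1 lower (Rpn1, -0.24 ± 0.08, adjusted p = 0.0323). Each of these calls was lost on leaving out any 1 of 7 of the arrays. Among 22 genes of ER-associated degradation, 4 were higher and 1 lower. The shares were 7.69% higher and 7.69% lower in the folding cycle and 18.2% and 4.55% in degradation, against 22.0% and 17.4% of all genes. Edem1, which hands misfolded glycoproteins to degradation, rose by 0.95 ± 0.15 (adjusted p = 7.43e-04), and Syvn1, the ubiquitin ligase HRD1, rose from 1068 ± 59.7 to 1682 ± 186 (0.64 ± 0.10, adjusted p = 8.83e-04). Herpud1, a partner of HRD1, rose by 0.55 ± 0.11 (adjusted p = 0.00395), and the ligase gene Rnf5 fell by 0.67 ± 0.13 (adjusted p = 0.00308). Sel1l, the other partner of HRD1, did not pass (0.04). Nploc4 was the other gene called higher (0.36, adjusted p = 0.0471). Its call was lost with median centring (adjusted p = 0.355) and without any 1 of 7 of the arrays. Faf2 did not pass on the probe set used (0.26), while 1 of its 2 others was higher (0.62, adjusted p = 0.0166).

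Of the 14 prolyl isomerases and other folding factors, 6 were higher (42.9%) and 0 lower, against 22.0% and 17.4% of all genes. The median change of this list was 0.46, beside 0.05 for all genes. Fkbp7 (1.01 ± 0.27, adjusted p = 0.0161) and Fkbp14 (0.90 ± 0.16, adjusted p = 0.00206) led it, and Serpinh1 (0.66), P4ha1 (0.78), P4ha2 (0.62) and Plod1 (0.53), which serve collagen folding, were higher too. Plod2 (0.23) and Fkbp10 (0.72, adjusted p = 0.267), which serve it as well, were not called. They read 2558 and 1484 on P21 replicate 4, and without that array their changes were -0.18 and 0.20. Ppib, a prolyl isomerase gene of this list, did not pass (-0.24, adjusted p = 0.0751), though all its P21 values lay below all its P1 values. It was called lower with median centring (adjusted p = 0.0420) and with the replicate block (adjusted p = 0.0427). Fkbp7 read 1336 on P21 replicate 4 and 528 to 785 on the other P21 arrays, and without that array its change was 0.76 (adjusted p = 0.0232). P21 replicate 4 also had the highest summed intensity of 6 endothelial and fibroblast markers, 19998 against 8184 to 13723 on the other P21 arrays and 4472 to 7974 at P1. That sum was carried by the collagen genes Col1a1 (8626) and Col1a2 (8464), while the endothelial markers Cldn5 (1408), Pecam1 (343.6), Vwf (240.0) and Kdr (916.6) were at their lowest P21 value on that array. Without P21 replicate 4 the other 5 folding genes were still called, with adjusted p from 0.00277 to 0.0317, and so were Col1a1 (1.02, adjusted p = 0.0145) and Col1a2 (1.35, adjusted p = 0.00703). The part of those cells in this list was not tested.

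Of the 24 translocation genes, 3 were higher (12.5%) and 5 lower (20.8%), against 22.0% and 17.4% of all genes. Srp9 (0.55 ± 0.14, adjusted p = 0.0139) and Srpra (0.46 ± 0.13, adjusted p = 0.0194), of the signal recognition particle and its receptor, were higher, and Sec62 by 0.36. The signal peptidase genes Sec11a (-0.45 ± 0.11, adjusted p = 0.00922), Spcs2 and Spcs3 and the translocon genes Ssr2 (-0.45 ± 0.13, adjusted p = 0.0243) and Ssr3 were lower. With median centring 0 of the list were higher. The Srpra call was lost without P1 replicate 1 or P21 replicate 4, that of Ssr2 when P1 replicate 3, P1 replicate 4, P21 replicate 1 or P21 replicate 4 was dropped, and those of Spcs2 and Spcs3 without any 1 of 6 of the arrays.

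The genes that hold the ER stress element did not all share a call. Among the other ER genes, Creld2, Dnajc3, Ero1b and Derl3 held it. Dnajc3 and Ero1b rose, Creld2 did not pass and Derl3 is not analysed here. Of the 5 members with that element, 0 were called on their brightest probe set (1, Hsp90b1, without adjustment), while both dimmer Canx probe sets were called higher. Atf4 and Dnajb9, the 2 member genes called, were without it in the searched window.

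All tested motoneuron markers but Isl1 lay above the filter level on all 8 arrays, and markers of other cells moved with age on the same arrays. Of 8 tested motoneuron markers 1 was higher (Chat) and 1 lower (Isl1, above the filter level on 1 of the 4 P21 arrays). Their summed intensity was 45940 to 49645 at P1 and 47250 to 53699 at P21, with Nefm, Nefh, Nefl and Prph the brightest of them at both ages. Nefm read 9934 to 10937, near the highest value of any probe set on an array (10572 to 11540). Whether such bright probe sets can still show a change was not tested, and the sum says little about the dimmer markers. All 7 oligodendrocyte and myelin markers were higher, with sums of 6035 to 7605 and 31957 to 34625, and Mobp was near 0 at P1 (-2.6 to 23.5). Mog, Mobp and Opalin lay under the filter level on all 4 P1 arrays, passed it through their P21 values alone and so had to differ. Of all genes 22.0% were higher and 17.4% lower. All 3 Schwann cell markers were higher (sums of 6296 to 8562 and 10644 to 14529), and 4 of 6 astrocyte markers were higher and 1 lower (10317 to 11823 and 14371 to 17622). Of the microglial markers 3 of 4 tested were higher (1300.4 to 1827 and 3446 to 6347), and Aif1 was not called (0.06). Cd74 passed the filter through its P21 values alone, and Lyz2 lay above its level on 1 of the 4 P1 arrays. Itgam, Ptprc and Cx3cr1 were under the filter level and not tested. Their means were 122, 99.4 and 124 at P1 and 27.3, 55.5 and 194 at P21. Of 6 endothelial and fibroblast markers 3 were higher, and of 3 tested interneuron markers 1 was higher and 2 lower (6967 to 7574 and 4530.4 to 7031), each a call lost without at least 3 of the arrays in turn, and those of Gad1 (adjusted p = 0.0709) and Slc32a1 (adjusted p = 0.0890) also with the replicate block. The other Gad1 probe set had a change of 0.51 and was not called (adjusted p = 0.0844). The part of these other cells in the changes above was not tested.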

How the data were processed

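The deposited table holds 1 linear intensity per probe set and array (8 Affymetrix RAE230 2.0 arrays, 31042 probe sets, 0 missing values). How the authors summarised, corrected and scaled these intensities was not given in the sources used here; array medians were 323 to 416 and 66 to 250 values per array were below 0. For arrays, the number of arrays limits the precision.

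Intensities below 0 were set to 0, 16 was added and log2 taken. Probe sets above the 40th percentile of their array on at least 4 of 8 arrays were kept (19155) and fitted in R 4.3.3 with limma 3.58.1 (lmFit, eBayes), P21 against P1, with no covariate, and p-values were adjusted over all kept probe sets (Benjamini-Hochberg). The fit was tested on simulated data. Where all P1 intensities lay under the filter level, a fold is a bound against that level. Gene names came from the platform annotation, for probe sets with 1 symbol (20826; 436 had several and 9780 none), and 0 symbols differed in the GRCr8 table. The brightest kept probe set stood for a gene. Promoters are from RefSeq (GRCr8), 9 of 10 members matched by symbol, and motif searches and figures used Python 3.11.15. No gene coordinates of probe sets are given, since the annotation names no assembly.

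All 10 members were named, and from each list the 2 called genes with the largest change in each direction; further list genes, and the promoter elements searched, were chosen after values were seen. The members and lists were chosen with earlier results of these data known. Alternatives changed the pseudocount, filter, scaling, replicate block and probe-set choice or left out each array.

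Replicate numbers are shared between the ages. Deviations of same-numbered arrays from their age means correlated at 0.515, 0.321, 0.558 and 0.150 over the kept probe sets, and those of differently numbered arrays at -0.458 to 0.366. P1 replicate 4 correlated more with P21 replicate 3 (0.366) than with P21 replicate 4. The numbers were taken as pairs in the replicate block and in the same-numbered comparisons. The main fit and the permutation tests do not use the pairing. The design text says litters were divided between the ages but not that a number is a litter. P-values measure the spread between these pools.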

Additional observations from a re-analysis of the deposited data

Results flagged for a closer look

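The P1 value of Pdia4 on P1 replicate 1 stood apart from the others of its age. It read 1858, whereas the other 3 P1 arrays read 1421, 1417 and 1412, and the gap was 0.981 of the whole range, above Dixon's 95% critical value for 4 values. Of 26 groups of 4 values examined (13 probe sets at 2 ages) this was the 1 that passed, and chance passes about 5% of such groups. Without that array the change of Pdia4 was 0.08 (adjusted p = 0.618) in place of -0.01.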

How the results depend on the processing

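Every count below is of limma calls, and adjusted p is limma's unless named as permutation. The number of all probe sets called was 5866 to 8805 over the alternatives and stayed within 1.5 times of 7329. Member probe sets called higher numbered 5, but 2 with median centring, and 4 to 6 without 1 array. Those called lower numbered 0, but 2 with median centring and 1 with the replicate block, and 0 to 1 without 1 array. Member genes called higher numbered 2, but 0 with median centring and 4 with the mean of the kept probe sets, and 2 to 3 without 1 array; those called lower numbered 0, but 2 with median centring and 1 with the replicate block, and 0 to 1 without 1 array. Centring moved the median change of all probe sets from 0.07 to -0.07. Which scaling lies nearer the true levels was not tested. Other ER genes called higher numbered 24 to 42 over the alternatives (30 to 34 without 1 array). Those called lower numbered 13, but 8 without the filter on low values, and 7 to 15 without 1 array; the cause was not tested. Changes that turned sign were those of Hspa5 (0.030 with quantile normalization), the brightest Canx probe set (-0.11 with median centring) and Pdia4 (0.083 without P1 replicate 1 and 0.067 without P21 replicate 2, in a range of -0.082 to 0.083), none of them called. The difference between Atf4 and Ddit3, -0.02, was 0.079 with quantile normalization and -0.13 to 0.084 without 1 array. With the replicate block, which uses the pairing, the members Hsp90b1 (adjusted p = 0.0298) and Ddit3 (adjusted p = 0.0118) became calls, and no other member changed its call. Pseudocounts of 1 and 64 changed no member's call. The filter at the 60th percentile kept all 13 probe sets. With 4 arrays per age, the permutation tests cannot go below 0.0286.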

Other observations

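Of 11 tested genes of ER calcium handling and cell death, 3 were higher and 1 lower, against 22.0% and 17.4% of all genes, and their median change was 0.01. The inositol trisphosphate receptor gene Itpr3, a channel that releases calcium from the ER, read under the filter level on all 4 P1 arrays (126 ± 15.0) and 991 ± 155 at P21, at least 3.73-fold higher. It passed the filter through its P21 values alone and so had to differ. Itpr1, the main neuronal form, rose from 417 ± 29.0 to 1194 ± 32.5 (1.49 ± 0.09, adjusted p = 2.39e-06), while Itpr2 did not pass (-0.20). Bcap31, an ER membrane protein cleaved in apoptosis, rose by 0.39 ± 0.10 (adjusted p = 0.0119, 0.232 with median centring). Bbc3, the gene of the cell death protein PUMA, fell from 1297 ± 119 to 582 ± 85.8 (-1.14 ± 0.12, adjusted p = 7.86e-05). Bcl2l11, the gene of BIM, was not called on its brightest probe set (0.21), while its other one was lower (-1.20, adjusted p = 1.23e-04). Tmbim6 was not called on its brightest probe set (-0.12), while its other one was higher (0.80, adjusted p = 4.6e-04). Atp2a2, the main calcium pump of the ER, did not pass on any of its 4 kept probe sets.

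The brightest and the dimmer probe sets of a gene were also compared over the whole array. For 2494 genes with more than 1 kept probe set, 3159 comparisons of a dimmer probe set with the brightest were made. The signed change of the dimmer one lay above that of the brightest in 56.5% of them, where a smaller fall counts as well as a larger rise. The median signed gap, dimmer minus brightest, was 0.07, and the gaps in Canx and Pdia3 were 0.38, 0.93 and 1.38. Gaps of opposite sign cancel in that median, so it does not give the usual size of a gap. In 348 comparisons the brightest was not called and the dimmer was higher, and in 198 the dimmer was lower. For the 32 such genes of the ER lists and the members the numbers were 10 and 1 of 40 comparisons, beside 348 and 198 of 3159 over all genes. Canx (2 probe sets) and Pdia3 (1) were among the 10. The transcript ends that each probe set reads were not analysed here.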
